A study of Mus musculus with 4 samples.

Results

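WAP-domain and Kazal-type protease inhibitors were examined in gonadal white adipose tissue (WAT) of mice fed a normal or a fat rich diet. The genes were chosen by symbol, as those that start with Wfdc, Spink or Spint followed by a digit, together with Eppin, Slpi and Wap. This gave 38 genes among 20239 named probe sets of 21225 in all. They comprise 21 WAP genes, 12 Kazal genes (Spink) and 5 Kunitz genes (Spint), the last of another inhibitor fold that the symbol rule includes. Each gene had 1 probe set.

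The tissue came from male NMRI mice, an outbred stock, that received a standard diet until the age of 40 days. One group then ate a fat diet (FD, 18% fat) for 8 days and the age matched controls stayed on the normal fat diet (ND, 3.3% fat), and gonadal fat was taken at 48 days. RNA of 3 mice per diet was pooled and each pool was hybridised to 2 Affymetrix mouse gene arrays, so that there was 1 biological sample per diet and duplicate arrays. The SDs below therefore measure array noise and no p-value was computed. Effects of diet cannot be told apart from any further difference between the pools.

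Serine proteases cut proteins in secretions, at cell surfaces and in the matrix, and small secreted inhibitors hold them in check. WAP domains are built around a core of disulfide bonds, Kazal and Kunitz domains present a loop that blocks the active site of trypsin-like enzymes. Many of these genes are known from epithelia of the male reproductive tract, where their products coat sperm, and others from skin, gut, mammary gland and white blood cells. Gonadal fat of male mice lies against the epididymis.

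Most of these inhibitor genes had a lower signal in the FD pool. A gene was counted as measured when the mean of its RMA values, which are on a log2 scale, was at least 6, and it was called when FD and ND differed by at least 1.5-fold (0.58 on the log2 scale) and the ND and FD arrays had no overlap. Of the 38 genes, 35 were measured, and of these 20 were lower in FD, 1 was higher and 14 were not called. Over all 18211 measured probe sets, 4.28% were lower and 1.33% were higher. The median difference between FD and ND was -1.10 for the 35 genes and 0.03 for all measured probe sets. The differences of the 35 genes ran from -5.50 for Wfdc6a to 0.60 for Wfdc21. Of the 35, 6 reached the level of 6 in ND only and 1 in FD only, so these genes were measured because of the diet in which they were high. With a level of 6 required in each diet, a choice made after the values were seen, 15 of 28 genes were lower, against 4.07% of all probe sets.

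**Figure D1:**
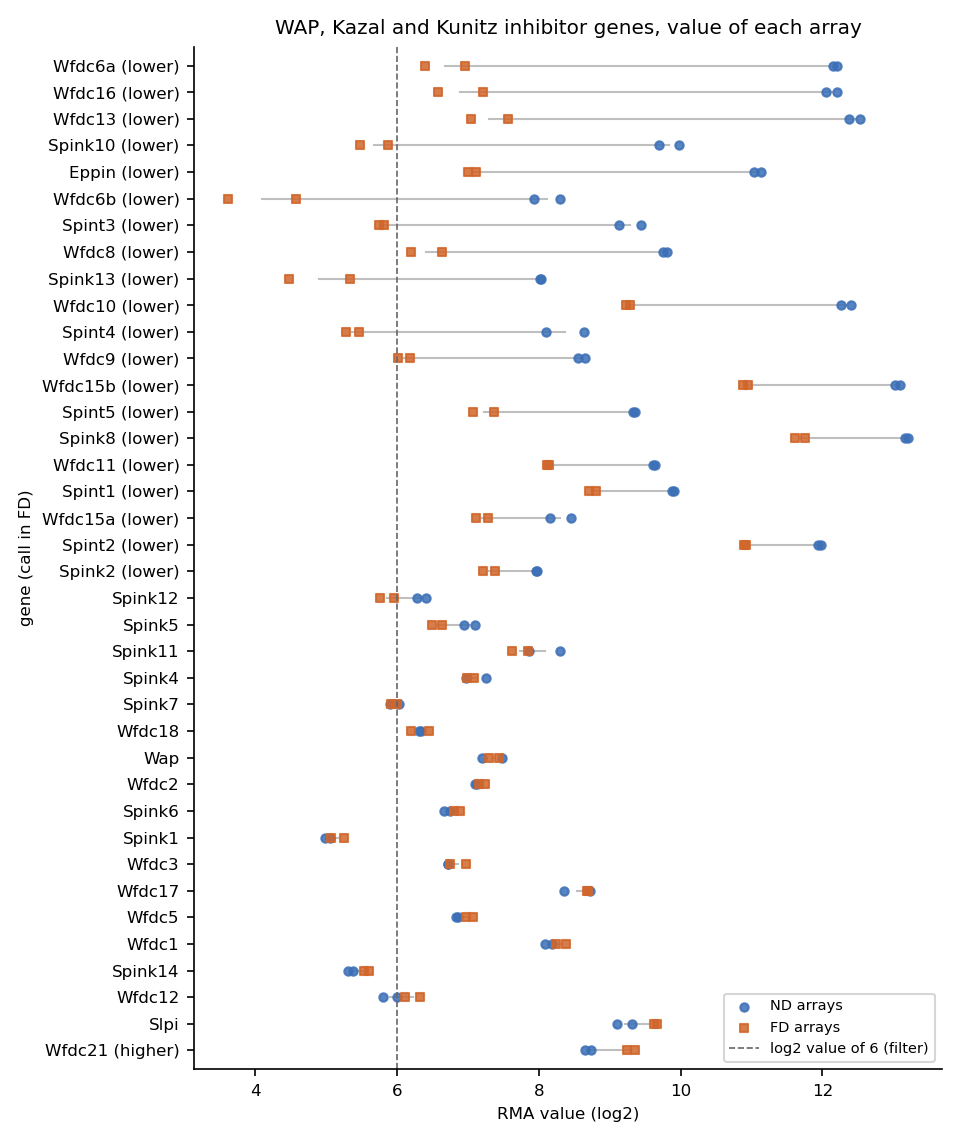
The RMA value (log2, horizontal axis) of every array is shown for the 38 inhibitor genes, with circles for ND, squares for FD and a grey line between the diet means. The 20 genes called lower stand at the top, with Wfdc6a at 12.16 and 12.20 in ND and at 6.96 and 6.39 in FD, and Wfdc21, the gene called higher, stands at the bottom.

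**Figure D2:**
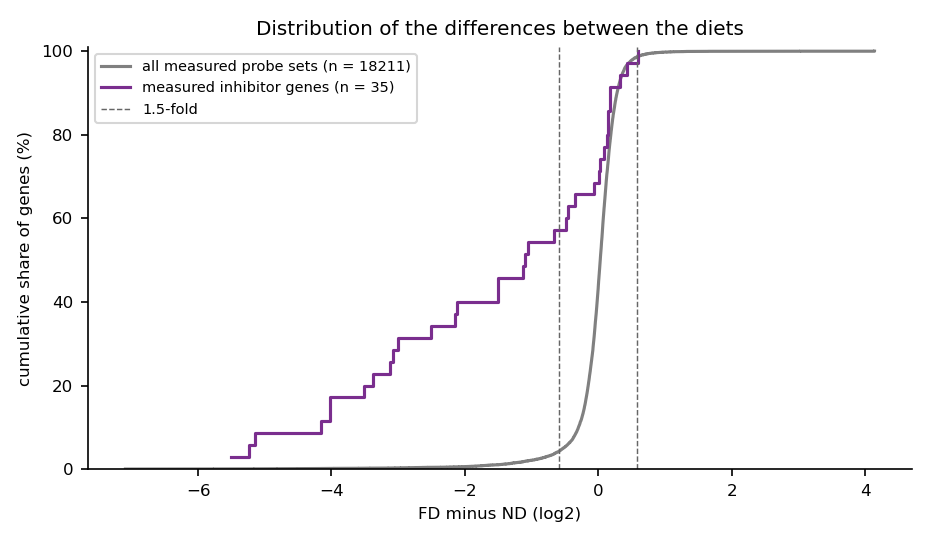
The cumulative share of genes (vertical axis, %) is drawn against the difference between FD and ND (log2, horizontal axis) for the 35 measured inhibitor genes and for all 18211 measured probe sets. The curve of the inhibitor genes starts at -5.50 and has its median at -1.10, whereas that of all probe sets has its median at 0.03.

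Among the WAP genes, 11 of 21 were lower in FD, 1 was higher and 9 were not called. Wfdc6a had the largest difference, with values of 12.16 and 12.20 on the ND arrays and of 6.96 and 6.39 on the FD arrays. The difference was -5.50, or 45.3-fold lower, from a mean of 12.18 ± 0.03 in ND to 6.68 ± 0.40 in FD (SD, n = 2 arrays of 1 pool). Wfdc16 was at 12.21 and 12.06 in ND and at 7.22 and 6.57 in FD, a difference of -5.24. For Wfdc13 the ND arrays gave 12.38 and 12.53 and the FD arrays 7.57 and 7.04, a difference of -5.15. In each of these 3 genes the FD arrays lay at least 4.81 below the ND arrays, while duplicates differed by at most 0.65.

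Eppin encodes a sperm-coating inhibitor of the epididymis and testis that carries a WAP and a Kunitz domain. It was at 11.03 and 11.14 in ND and at 7.12 and 7.0 in FD, a difference of -4.03. Wfdc8 was at 9.81 and 9.75 in ND against 6.63 and 6.19 in FD (-3.37), and Wfdc6b at 7.93 and 8.30 against 4.57 and 3.62 (-4.02). Wfdc6b was under 6 in FD, and with values under 6 set to 6 its difference was -2.12. Wfdc6a and Wfdc6b are close paralogs, so that each probe set may pick up transcripts of the other.

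Smaller differences were found for the other lower WAP genes. Wfdc10 was at 12.41 and 12.26 in ND and at 9.23 and 9.29 in FD, a difference of -3.07. Wfdc9 was at 8.65 and 8.56 in ND and at 6.18 and 6.01 in FD (-2.50). The annotated loci of Wfdc9 and Wfdc10 overlap, as do those of Wfdc6b and Wfdc8, and the values of each pair may not be independent. Wfdc15b, whose product SWAM1 is known as an antibacterial protein, was at 13.03 and 13.10 in ND and at 10.95 and 10.88 in FD (-2.15). Its paralog Wfdc15a was at 8.16 and 8.45 against 7.29 and 7.11 (-1.10). Wfdc11 had the smallest difference of the WAP genes located between Spint3 and Spint5 on the chromosome, with 9.62 and 9.65 in ND and 8.14 and 8.11 in FD (-1.50).

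Of the 12 Kazal genes, 9 were measured and 4 of these were lower in FD. Spink8 was at 13.17 and 13.21 in ND and at 11.75 and 11.61 in FD, a difference of -1.51. Spink10 was at 9.70 and 9.97 in ND and at 5.87 and 5.48 in FD (-4.16, or -3.83 with values under 6 set to 6). Spink13, whose product coats the sperm head in the rat, was at 8.01 and 8.03 in ND and at 5.33 and 4.48 in FD (-3.12, or -2.02 with values under 6 set to 6). Spink2 encodes a trypsin and acrosin inhibitor of sperm and had a smaller difference of -0.67, from 7.96 and 7.98 in ND to 7.21 and 7.38 in FD. In all 4 genes both FD arrays lay below both ND arrays, as the call requires.

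The other Kazal genes were not called. Spink11 was at 7.86 and 8.31 in ND and at 7.62 and 7.85 in FD (-0.35), where the gap between the diets was 0.01 and thus smaller than the difference of the duplicates. Spink12 and Spink5, the gene of the skin inhibitor LEKTI, had differences of -0.49 and -0.46, under 1.5-fold, without overlap of the arrays. Spink6, a skin inhibitor of kallikreins, had a difference of 0.14 and Spink4, known from goblet cells of the gut, of -0.07. Spink1, Spink7 and Spink14 stayed under a mean of 6, with values between 4.99 and 6.03 on all arrays. Spink1 is the pancreatic secretory trypsin inhibitor, and 0 of 6 measured genes of exocrine pancreas were called.

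All 5 Kunitz genes were lower in FD. Spint3 was at 9.13 and 9.45 in ND and at 5.74 and 5.82 in FD (-3.51, or -3.29 with values under 6 set to 6). Spint4 was at 8.09 and 8.64 against 5.28 and 5.46 (-3.0, or -2.37 with values under 6 set to 6), and Spint5 at 9.36 and 9.33 against 7.37 and 7.08 (-2.12). Spint1 and Spint2 encode HAI-1 and HAI-2, membrane inhibitors of epithelial surface proteases, and lie apart from the other Kunitz genes. Spint1 was at 9.90 and 9.88 in ND and at 8.71 and 8.81 in FD, a difference of -1.13. Spint2 was at 11.98 and 11.94 in ND and at 10.92 and 10.89 in FD (-1.06). Spint1 and Spint2 were thus lower by 2.18-fold and 2.08-fold, and duplicates of these genes differed by at most 0.10.

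The sizes of the differences varied widely among the 20 lower genes. They reached 4-fold in 14 genes, 8-fold in 10, 16-fold in 6 and 32-fold in 3. The gap between the nearest arrays of the diets ranged from 0.58 to 5.19, and in all 20 it was larger than the difference of the duplicates in either diet. FD array 1 lay above FD array 2 in 15 of the 20, compared with 51.2% of all measured probe sets and 45.8% of those lower in FD. The largest such difference was 0.95, for Wfdc6b. In the FD pool, 9 of the 20 genes had a mean under 7.05, the level under which 95% of 1098 olfactory receptor probe sets lay, and none of the 20 did in the ND pool. Olfactory receptors are a family with little expression outside the nose, so an FD value in that range may be background and the difference of such a gene is then a minimum.

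The lower genes were not spread evenly over the genome. In the RefSeq gene order of GRCm38.p6, 19 of the 38 genes stand in 1 run on chromosome 2, from Wfdc5 to Wfdc3, with 13 other protein-coding genes between them. All 19 were measured, and 14 were lower and none was higher in FD, with a median difference of -2.50. Over all measured probe sets, 4.28% were lower and 1.33% were higher. Of the 19, Spint3, Wfdc6b and Spint4 reached the level of 6 in ND only and Wfdc12 in FD only. Of the 13 other genes, 8 were measured and none was called, with differences between -0.12 and 0.32. These include Sdc4, the gene of syndecan 4 (0.06), Pigt (0.13) and Matn4 (0.26). Also in the run are the seminal vesicle secretory genes Svs2, Svs3a, Svs3b, Svs4, Svs5 and Svs6, of which Svs2 was measured (0.32). Svs2 and Trp53tg5, another of the 8, lay under the olfactory receptor level in both diets. In these genes a fall could hardly be seen. The lower genes formed a pair, Wfdc15a and Wfdc15b, and an unbroken stretch of 12 protein-coding genes from Spint3 to Spint5. In this stretch differences ranged from -5.50 to -1.50 with a median of -3.44. Wfdc13 at -5.15 and its neighbour Wfdc11 at -1.50 differed in size by far more than their duplicates. On either side of the stretch, Wfdc2 and Wfdc3 had differences of 0.08 and 0.14 and were not called, but Wfdc3 lay under the olfactory receptor level in both diets and Wfdc2 just above it, so that a fall could hardly be seen in these genes.

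**Figure D3:**
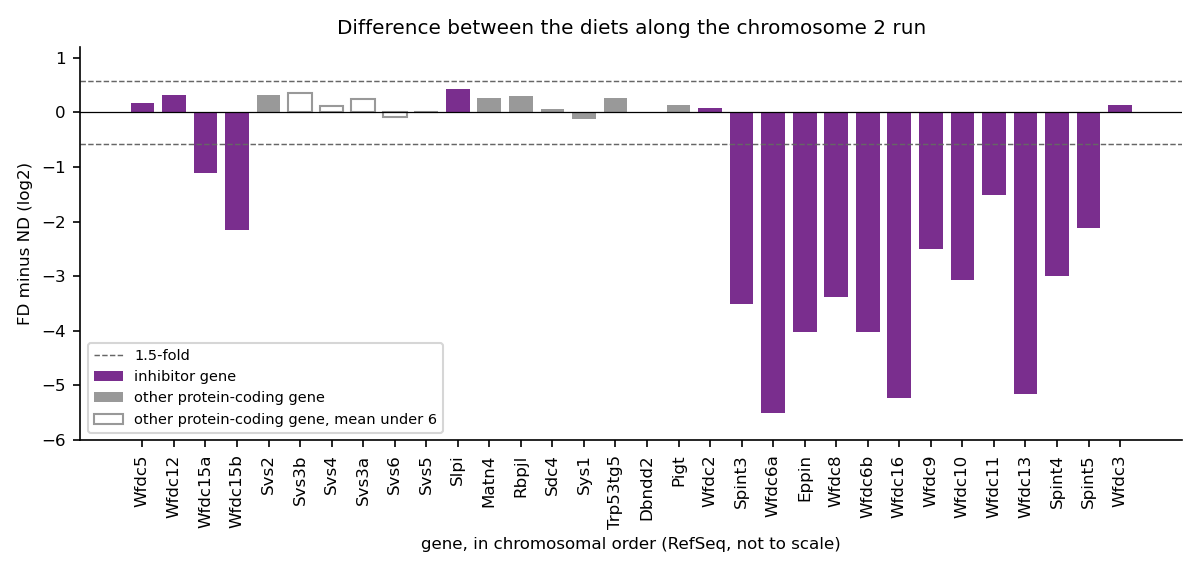
The difference between FD and ND (log2, vertical axis) is shown for the 32 protein-coding genes of the chromosome 2 run in RefSeq order, with inhibitor genes as purple bars and other genes as grey bars (open where the mean was under 6). The 12 neighbouring genes from Spint3 to Spint5 all lie at or below -1.50, and the flanking genes Wfdc2 and Wfdc3 lie at 0.08 and 0.14.

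The start of this stretch falls between Wfdc2 and Spint3, and the sequences upstream of both genes are shown together with those of Wfdc15b and Wfdc11, lower genes of the same run. Each is the 250 bases before the annotated start in RefSeq (GRCm38.p6), written 5′ to 3′ on the strand of the gene. They lie at chr2:164221664-164221913, minus strand (Wfdc15b), chr2:164562465-164562714, plus strand (Wfdc2), chr2:164573457-164573706, minus strand (Spint3) and chr2:164674088-164674337, minus strand (Wfdc11). Capitals mark TGTTCT, the half-site known for the androgen receptor and other steroid receptors, which was searched on both strands (AGAACA on the other). The half-site stands upstream of Wfdc15b, Spint3 and Wfdc11 and is not in the window of Wfdc2. It is not upstream of any other lower gene with a RefSeq promoter, such as Wfdc6a, Wfdc8, Wfdc9, Wfdc10 and Wfdc16 of the same stretch. The sequences shown are thus not typical of the lower genes.
Wfdc15b: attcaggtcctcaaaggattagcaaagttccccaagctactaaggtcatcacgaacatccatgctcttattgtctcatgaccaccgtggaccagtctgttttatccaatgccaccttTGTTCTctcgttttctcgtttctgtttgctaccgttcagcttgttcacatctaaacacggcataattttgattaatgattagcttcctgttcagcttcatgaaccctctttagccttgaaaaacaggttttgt
Wfdc2: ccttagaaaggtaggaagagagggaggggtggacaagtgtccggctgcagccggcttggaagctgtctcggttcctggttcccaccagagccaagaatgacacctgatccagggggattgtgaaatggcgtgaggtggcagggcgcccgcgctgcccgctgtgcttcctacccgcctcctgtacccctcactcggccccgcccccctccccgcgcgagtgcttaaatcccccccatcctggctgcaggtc
Spint3: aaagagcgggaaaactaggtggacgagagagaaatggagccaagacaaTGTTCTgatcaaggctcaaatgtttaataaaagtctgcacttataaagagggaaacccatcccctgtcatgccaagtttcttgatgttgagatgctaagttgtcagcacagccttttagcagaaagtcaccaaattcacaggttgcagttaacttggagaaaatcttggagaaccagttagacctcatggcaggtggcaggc
Wfdc11: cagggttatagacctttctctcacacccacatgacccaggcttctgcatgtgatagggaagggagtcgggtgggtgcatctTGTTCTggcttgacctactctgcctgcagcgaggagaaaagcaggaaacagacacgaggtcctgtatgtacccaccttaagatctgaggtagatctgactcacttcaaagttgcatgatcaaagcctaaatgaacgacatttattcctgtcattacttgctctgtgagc

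In windows from 250 bases before to 50 bases after the start, TGTTCT was found in 4 of 16 lower genes and in 1 of 7 other inhibitor genes with a RefSeq promoter. Among all 27025 genes with a promoter, 21.3% had a match, against 21.7% of the 23 inhibitor genes. The match of Eppin, the fourth lower gene, and those of Wfdc3, which was not called, lie after the start. These letters were thus about as common near the inhibitor genes as near any gene, and a match is not a bound site. For the androgen receptor gene itself no value was analysed here. Of 3 measured genes of steroid receptors and their coregulators, Fkbp5, a gene that responds to androgens and glucocorticoids, was lower in FD (-0.83), and Esr1 (0.23) and Nr3c1 (0.17) were not called.

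Outside this run, 6 genes were lower. They are Spint1, which lies elsewhere on chromosome 2, Spint2, Spink2, Spink8, Spink10 and Spink13. Spink10, Spink7 and Spink13 are neighbours on chromosome 18, where Spink10 and Spink13 had differences of -4.16 and -3.12 and Spink7 between them was not measured and had a difference of -0.01. The annotated locus of Spink10 overlaps those of Spink7 and Spink13, so their probe sets may share transcripts. A second run on chromosome 18 holds Spink1, Spink5, Spink14, Spink6, Spink12 and Spink11, of which 4 were measured and none was called. Spinkl, a Kazal gene in this run that the symbol rule does not include, was at 7.71 and 7.93 in ND and at 5.73 and 6.35 in FD (-1.78), and its neighbour Gm10267 had a difference of -0.75. Both were called lower.

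A smaller group of WAP genes did not have a lower signal in FD. Wfdc21, also known as Wdnm1-like, a secreted protein described in adipocytes, was at 8.66 and 8.74 in ND and at 9.36 and 9.24 in FD. Its difference of 0.60 was just above the threshold, and 221 probe sets had a larger positive one. The call of Wfdc21 was lost without ND array 1 (0.56), without FD array 1 (0.54) and relative to the adipocyte genes (0.50). Slpi, the secretory inhibitor of neutrophil elastase, was at 9.10 and 9.32 in ND and at 9.67 and 9.62 in FD (0.43), where the arrays did not overlap but 1.5-fold was not reached.

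Wfdc17, known from activated macrophages, was at 8.36 and 8.72 in ND and at 8.68 and 8.69 in FD (0.15), and the arrays overlapped. Wfdc1, first described in prostate stroma, was at 8.08 and 8.19 against 8.38 and 8.24 (0.18). Wfdc2, the gene of HE4, which was named after the human epididymis, was at 7.13 and 7.09 in ND and at 7.24 and 7.15 in FD (0.08). Wfdc2 was thus close to the olfactory receptor level of 7.05 in both diets. Wfdc5 (0.18), Wfdc12 (0.32), Wfdc3 (0.14), Wfdc18 (0.01) and Wap, the whey acidic protein of milk (0.03), were not called either. Of the 14 uncalled genes, 7 lay under the olfactory receptor level in both diets, namely Spink5, Spink6, Spink12, Wfdc3, Wfdc5, Wfdc12 and Wfdc18. In the 14 genes the arrays of the diets parted upwards in 7, downwards in 3 and overlapped in 4, whereas 63.5% of all measured probe sets had no overlap, 36.3% upwards and 27.2% downwards. In the macrophage list, 2 of 12 genes were higher, or 1 relative to the adipocyte genes, and none was lower. The 2 were Lyz1 (1.10) and Itgam (0.64). Cd68 (0.49) and Adgre1 (0.46) were next in size and were not called. In all 12 the FD arrays lay above the ND arrays, with a median difference of 0.36. Whether macrophage RNA has a part in the values of Slpi and Wfdc17 was not tested.

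Proteases that these inhibitors act on were examined as well. Spint1 and Spint2 restrain matriptase, prostasin and hepsin, enzymes of the epithelial surface. In a list of 15 surface proteases, their substrates and receptors, 5 genes were lower and 1 was higher, with a median of -0.08. St14, the matriptase gene, was at 9.85 and 9.97 in ND and at 8.81 and 8.84 in FD (-1.09). Prss8, the prostasin gene, had a difference of -1.12, Hpn (hepsin) of -0.64, Tmprss2 of -0.62 and Epcam, an epithelial adhesion protein that matriptase cleaves, of -1.38. The differences of St14 and Prss8 thus lay beside those of Spint1 (-1.13) and Spint2 (-1.06). This size was not particular to the proteases. The median of 12 general epithelial genes, 9 of them lower and 3 not called, was -1.11. Mst1r, the receptor of macrophage stimulating protein, was higher (0.63), while Hgf (0.04), its receptor gene Met (-0.11) and Hgfac (-0.08) were not called. The call of Mst1r was lost relative to the adipocyte genes. The count of lower genes in this list was 4, not 5, with the arrays centred on their medians and without ND array 1. Of the 5, Tmprss2 lay nearest to the threshold.

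**Figure D4:**
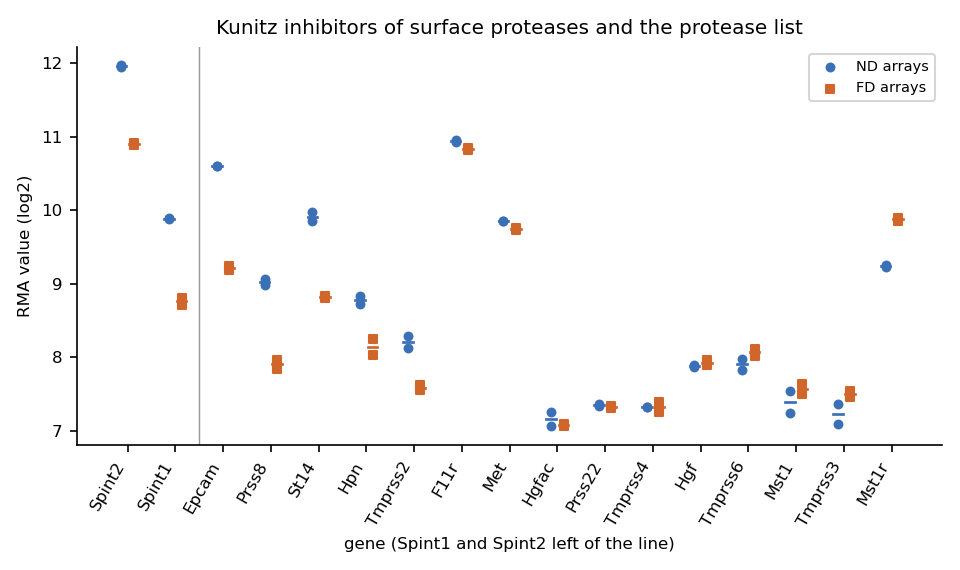
RMA values (log2, vertical axis) of single arrays are shown for Spint1, Spint2 and the 15 genes of the surface protease list, with circles for ND, squares for FD and short lines for the mean of each diet. Spint1, Spint2, Epcam, Prss8, St14, Hpn and Tmprss2 were called lower and Mst1r higher. The arrays also part downwards in Met and F11r and upwards in Tmprss3 and Tmprss6, by less than 1.5-fold. Levels of different genes are not comparable.

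In the other protease groups 1 gene was lower and 1 was higher. Of 7 measured serine proteases of neutrophils and mast cells, Prtn3 was higher (0.61) and none was lower, and Mcpt4 (0.45), Elane (0.24) and Tpsb2 (0.14) were not called. The call of Prtn3 was lost under another normalization (cyclic loess) and relative to the adipocyte genes. Of 18 measured kallikreins, Klk1b5 was lower (-1.10) and none was higher, and Klk10 (0.42), Klk1b22 (0.39) and Klk1b8 (-0.31) followed in size. Klk1b5 lay under the olfactory receptor level of 7.05 in both diets, with means of 6.80 in ND and 5.69 in FD. With the filter at 7 it was not measured. Of 7 measured serine proteases of sperm and the male tract none was called, among them Acr, the acrosin gene (0.14), Prss55 (0.25), Pcsk4 (0.25) and Prss51 (0.18). Acr, Prss55, Prss21 and Prss52 of this list lay under the olfactory receptor level in both diets, so that a fall could hardly be seen. In 20 other genes with WAP, Kazal or Kunitz domains, 1 was lower, Spinkl, and 3 were higher. These were Ambp, a liver gene with Kunitz domains (0.98), the follistatin-like gene Fstl1 (0.95) and Col6a3, a collagen with a Kunitz domain (0.74).

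Part of the epididymal marker genes were lower in FD. In a list of 29 epididymal genes, chosen like the inhibitor genes with earlier results of these arrays known, 26 were on the array and 21 were measured, and 10 of these were lower in FD. Over all measured probe sets, 4.28% were lower. The remaining 11 genes of the list were not called, and the median of the 21 was -0.31. Of the 11, only Defb20 and Cst11 had diet means above the olfactory receptor level of 7.05. In the others a fall could hardly be seen. Without overlap of the arrays 12 lay lower and 4 higher in FD, against 27.2% and 36.3% of all measured probe sets. The 4 include Lcn6 (0.27) and Teddm1a (0.24). The largest differences were those of Adam7 (-7.09), Defb22 (-6.07), Rnase9 (-5.95) and Pate2 (-5.78). The log2 of the summed linear values of the list was 14.98 to 15.04 on the ND arrays and 12.13 to 12.18 on the FD arrays. Such a sum follows the genes with the highest values and not the list as a whole. These were Ces5a (mean 13.37) and Adam7 (12.64) in ND and Npc2 (11.06) in FD. Some epididymal genes were low in both pools, with Gpx5, Rnase10, Rnase13, Defb41 and Bsph1 at 5.96 or less on every array and Lcn8 at 6.49 or less. General epithelial genes were lower as well, 9 of 12, with the largest differences in Elf3 (-1.70), Krt18 (-1.67), Cdh1 (-1.65) and Esrp1 (-1.59). Cldn4 (-0.38), Krt19 (0.22) and Krt7 (-0.07) were not called. The log2 of the sum of the 12 genes was at least 13.93 in ND and at most 13.05 in FD. In such bulk tissue, fewer cells of a type and less RNA per cell cannot be told apart, nor can an effect of the diet and a different amount of epididymal tissue in the pools.

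Genes of other glands and cells were called in both directions. Over all measured probe sets, 4.28% were lower and 1.33% were higher. In the seminal vesicle list 3 of 9 genes on the array were measured, and Pate4 was lower (-1.22) while Svs2 and Svs1 (0.28) were not called. None of 4 prostate genes was measured. Of 8 measured germ cell genes of the testis, Odf1 (-1.44) and Smcp (-1.41) were lower and none was higher. Tnp2 (0.48) and Prm1 (0.34) followed in size, with the FD arrays above the ND arrays, and were not called. The median of these 8 germ cell genes was -0.004. Without overlap of the arrays, 3 lay lower and 3 higher in FD. Among 8 measured neutrophil genes, Lcn2 (-1.83), Ltf (-1.63) and Ngp (-1.62) were lower, whereas S100a8 (0.16) and Camp (0.08) were not called. The median of the 8 neutrophil genes was 0.03. All measured genes of this list that were not called lay under the olfactory receptor level of 7.05 in both diets. In the mesothelial list 7 of 11 genes were higher, led by Msln (1.25), and 2 were lower, Krt18 and Krt8 (-1.12), which the epithelial list also holds. Of 11 measured liver genes 7 were higher, led by Alb (4.14), and none was lower. Krt5 was lower (-0.78) among 8 keratinocyte genes, and none of 3 measured mammary genes was called. The adipocyte genes, which check the tissue, were all measured and none of the 14 was called, with a median difference of 0.10. The largest differences were those of Plin1 (0.34), Lep (0.30), Cidec (0.28) and Plin4 (0.27), and Adipoq, the adiponectin gene, was at 13.25 and 13.54 in ND and at 13.46 and 13.45 in FD.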

How the data were processed

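RNA of gonadal WAT was measured on 4 arrays, 2 for the ND pool and 2 for the FD pool. The authors deposited log2 values from RMA, a method that adjusts background, equalises array distributions and combines probes into 1 value per gene. For the software version and the genome build of the probe sets, the sources used here give nothing. RMA compresses differences at low levels. All 38 symbols matched RefSeq (GRCm38.p6) by Entrez number, and this annotation gave gene order and promoters (23 of 38 genes).

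Differences are mean FD minus mean ND values, without further normalization (Python 3.11.15, pandas 2.3.3). The methods of the study give no array test, and with 1 pool per diet a rule of size was used over all probe sets. The noise of a single array, estimated from the duplicates, had an SD of 0.13 in ND and 0.098 in FD over all probe sets, and of 0.13 in ND and 0.196 in FD over the measured inhibitor genes. Precision is limited by the number of arrays and, for the diets, by the single pool of each.

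The inhibitor genes and 19 lists of related, target and marker genes, which are not printed in full here, were chosen with earlier results of these data known. Genes that were called or had a mean of at least 8 in either diet are given by array. Of the other lists, up to 4 genes with the largest differences are named, with called genes where there were 5 or fewer. Adipoq, Lcn6, Teddm1a, F11r, Tmprss3, Tmprss6, Hgf, Met, Hgfac, Acr, Camp, Sdc4, Pigt, Matn4 and the epididymal genes at low level were named after their values were seen. The same holds for Defb20, Cst11, Ces5a, Npc2, Prss21, Prss52, Trp53tg5, Cldn4, Krt7 and Krt19. Alternatives were other filters and folds, values under 6 set to 6, centring, cyclic loess (limma 3.58.1), scaling to adipocyte genes and leaving out each array. A planned count of domain signatures in protein sequences was not run.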

Additional observations from a re-analysis of the deposited data

How the results depend on the processing

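The count of lower inhibitor genes lay between 15 and 22 under every alternative run. It was 15 of 28 measured genes with both diet means at 6 or more, an alternative chosen after seeing the data, and 22 of 35 at 1.3-fold. The count of higher genes was 2 at 1.3-fold (Wfdc21 and Slpi), and 0 at 2-fold and relative to the adipocyte genes. The median difference of -1.10 was -0.86 without a filter and with both diet means at 6 or more, and -1.50 with the filter at 7 or at the 95th percentile of olfactory receptors, where 25 genes were measured and Spink13, Spint4 and Wfdc6b left the lower group because of their level. With 1 array left out, 19 to 20 genes were lower, 0 to 1 was higher and the median lay between -1.12 and -1.04. Without FD array 1, Wfdc6b fell under the level of 6. Relative to the adipocyte genes, 5.47% of all probe sets were lower and 0.824% higher. No called gene changed direction in any alternative. No paired analysis was possible because the result comes from no test and the array numbers repeat the hybridisation of a single pool. The single pool per diet and the low FD signal limit how exactly the largest differences are known.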
